A study of Mus musculus with 12 samples.

Results

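The 10 genes described here encode glycoproteins of the extracellular matrix that bind cells, growth factors or other matrix proteins: Fn1, Vtn, Tnc, Tnr, Thbs1, Thbs2, Thbs3, Postn, Sparc and Fbln2. They were taken by gene symbol from a table of 18211 mouse genes, and all 10 were found there and passed the filter on low counts. The tumors grew from MC38, a mouse colorectal adenocarcinoma line, injected under the skin of female C57BL/6 mice bought at 5 weeks of age. From day 7 the mice received vehicle (CK), PB-020, anti-PD-1 or both agents (PB-020+anti-PD-1, called the combination below), with 3 tumors sequenced in each group. PB-020, which inhibits the type 1 receptor for insulin-like growth factor (IGF1R), was given by gavage at 50 mg/kg per day in DMSO and corn oil, and mice given the antibody against the T cell checkpoint receptor PD-1 got 200 μg each on days 9, 12, 15 and 18. A single tumor line was used in immunocompetent hosts of its own strain, and the RNA came from whole tumors, so a value sums the transcripts of cancer cells and host cells. Nothing in the labels ties the 3 samples of a group to separate mice, and p-values therefore measure only the spread between these samples.

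Fibronectin (Fn1) and vitronectin (Vtn) are adhesive ligands that cells hold through integrins, many of them by an arginine-glycine-aspartate (RGD) motif. The other genes encode mostly matricellular proteins, which modulate adhesion, growth factor access and collagen assembly rather than bearing load. In tumors such proteins come from fibroblasts, vessel walls, macrophages and the cancer cells themselves. In a whole tumor, fewer cells of a type and less RNA per cell cannot be told apart.

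The libraries held between 16545394 and 17217035 expected counts, and no 2 libraries were identical. Summed TPM (transcript shares scaled to 1 total in every library) of 10 skeletal muscle markers was 1187 in anti-PD-1 tumor 1 and at most 122 in the other 11 tumors. The same tumor had the highest sums of the T cell, macrophage, fibroblast, mural cell and glial marker lists. Results for the 10 matrix genes that rest on it are therefore given with and without it. Results for the other gene lists are given with all tumors only. Although MC38 is labelled an adenocarcinoma line, the summed TPM of 8 epithelial markers lay between 4.52 and 7.56, and only Cdh1 of them passed the filter on low counts.

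The coding sequences of Fn1, Vtn, Thbs1 and Thbs2 show what the RGD motif looks like at the RNA level. The windows below are read 5′ to 3′ on the coding strand of the longest GENCODE M21 coding transcript (GRCm38), with the 9 bases of the RGD codons in capitals, and their coordinates include an intron where the window crosses a splice junction. The Fn1 window (chr1:71606728-71606772, minus strand, codon 1614) lies in 1 exon, while the windows of Vtn (chr11:78499610-78499732, plus strand, codon 64), Thbs1 (chr2:118122671-118122908, plus strand, codon 927) and Thbs2 (chr17:14671466-14673153, minus strand, codon 928) each cross a junction.
Fn1: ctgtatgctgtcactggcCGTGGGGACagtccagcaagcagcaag
Vtn: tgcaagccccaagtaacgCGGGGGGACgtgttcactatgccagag
Thbs1: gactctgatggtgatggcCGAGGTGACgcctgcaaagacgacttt
Thbs2: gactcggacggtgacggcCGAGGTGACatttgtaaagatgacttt
The sister genes Thbs1 and Thbs2 shared 37 of the 45 bases of this window. Fbln2 and a second site in Fn1 also held the 3 codons in frame. No RGD codons were found in the longest coding transcripts of Tnc, Tnr, Thbs3, Postn and Sparc.

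Levels in the CK tumors spanned 3 orders of magnitude on the FPKM scale (fragments scaled to transcript length and library size, comparable between genes because it is per length). Sparc, a collagen-binding protein, had the highest level at 949 ± 25.7 FPKM (SD, n = 3) and ranked 98 of 18211 genes. Fbln2, an elastic fiber and basement membrane protein, followed at 225 ± 2.79, and Fn1 had 211 ± 36.0. The Fbln2 and Fn1 values overlapped, so their order is not settled by these tumors. Postn, which encodes the matricellular protein periostin, had 71.6 ± 13 and lay apart from its neighbors. Tnc (24.3 ± 5.26), Thbs1 (19.3 ± 9.80) and Thbs3 (17.8 ± 1.02) overlapped in turn. Thbs2 had 6.43 ± 1.23, Vtn 1.89 ± 0.805 and Tnr 0.750 ± 0.106, and each of these 3 lay below every CK value of the gene before it. Vtn rested on 30 to 72 expected counts per CK tumor, the fewest of the 10 genes. Summed over the 10 genes, the transcripts took 0.525% to 0.567% of each CK library.

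**Figure D1:**
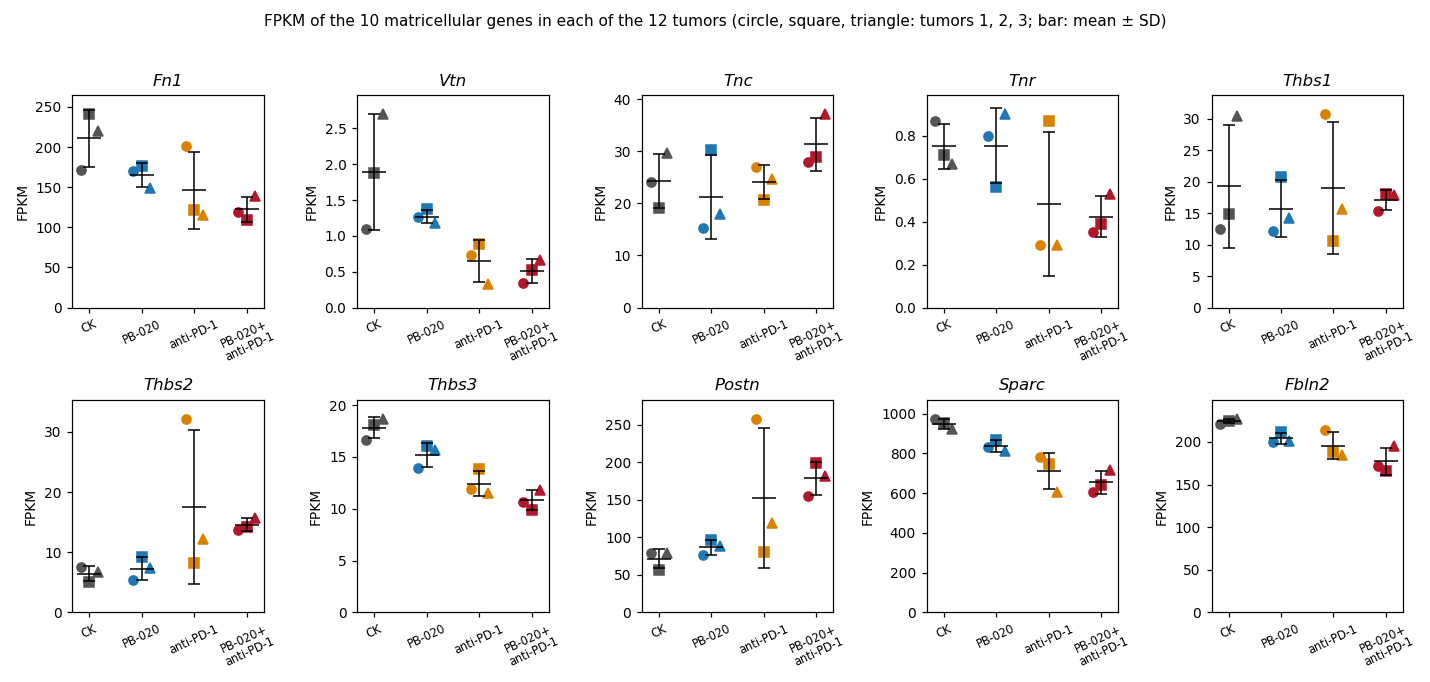
FPKM of each of the 10 genes (one panel per gene, linear axis from 0) in the 4 groups, with each symbol a tumor and the bar the mean ± SD of 3 tumors. Fn1, Vtn, Thbs3, Sparc and Fbln2 lie lower in PB-020+anti-PD-1 than in CK, Postn and Thbs2 lie higher, and anti-PD-1 tumor 1 (circle) has the highest Postn and Thbs2 values.

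The combination was compared with CK to find which of these genes changed under both agents. Of the 10 genes, 5 fell and 1 rose at an adjusted p under 0.05 (edgeR's quasi-likelihood test, Benjamini-Hochberg over 13563 genes). Over all genes tested, 9.6% fell and 8.35% rose. The median log2 change was -0.42 over the 10 genes and -0.0026 over all genes. Past 1.5-fold with an unadjusted p under 0.05, 3 fell (Fn1, Thbs3 and Vtn, against 3.57% of all genes) and 2 rose (Postn and Thbs2, against 4.95%). All 3 combination tumors lay below all 3 CK tumors for 6 genes (22.4% of all genes) and above them for 2 (17.9%). Fn1, Vtn, Tnr and Thbs3 had been chosen by the study from these same tumors. All 10 genes were chosen with earlier results of these data known, so neither their direction nor these counts are independent evidence.

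Fibronectin and vitronectin transcripts both fell. Fn1 (NCBI gene 14268, chr1:71585473-71653280 of GRCm38.p6, minus strand) had 171, 241 and 219.9 FPKM in the CK tumors and 119, 109 and 139 in the combination. No combination tumor reached the lowest CK tumor. The log2 change was -0.76 (SE 0.19, adjusted p = 0.0223). This call was lost when CK tumor 2 or 3 or combination tumor 1 or 2 was left out (adjusted p from 0.0597 to 0.0886), while the log2 change stayed between -0.88 and -0.65 under every alternative. Vtn (NCBI gene 22370, chr11:78499120-78502325, plus strand), a plasma adhesion protein made mainly by the liver, had 1.09, 1.88 and 2.70 FPKM in CK and 0.34, 0.53 and 0.66 in the combination. It was the largest fall among the 10 genes, with a log2 change of -1.86 (SE 0.40, adjusted p = 0.00874), and it rested on 9 to 18 expected counts per combination tumor. The call held under each alternative that tested the gene. The hepatocyte markers Alb, Apoa1 and Ahsg were each at 2 counts or fewer in every tumor.

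Sparc, Thbs3 and Fbln2 also fell, each with groups that did not overlap. Sparc (NCBI gene 20692, chr11:55394159-55420080, minus strand) had 974, 951 and 922 FPKM in CK and 607, 639 and 716 in the combination, a log2 change of -0.52 (SE 0.10, adjusted p = 0.00499). Thbs3 (NCBI gene 21827, chr3:89215180-89226841, plus strand), a pentameric thrombospondin, had 16.7, 18.1 and 18.7 FPKM in CK and 10.7, 9.92 and 11.8 in the combination. Its log2 change of -0.70 (SE 0.090, adjusted p = 0.00155) had the lowest p among the 10 genes. In the annotation, 318 bases of Thbs3 exons, 6.6% of the total, also lie in exons of Mtx1 on the opposite strand, and whether counting used strand is not given in the sources used here. Fbln2 (NCBI gene 14115, chr6:91212460-91272540, plus strand) had 222, 225 and 227 FPKM in CK and 171, 166 and 195 in the combination. The change was the smallest of those called, at -0.32 (SE 0.079, adjusted p = 0.0148), and it lost its call without CK tumor 2 or combination tumor 1 or 2 (adjusted p from 0.0567 to 0.0646).

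Postn rose against this direction. The gene (NCBI gene 50706, chr3:54359267-54391041, plus strand) had 79.0, 56.6 and 79.2 FPKM in CK and 155, 199 and 182 in the combination. Every combination tumor was above every CK tumor, and the log2 change was 1.34 (SE 0.37, adjusted p = 0.0390). That call was close to the threshold: it was lost under 11 of 20 alternatives, 9 of them leaving out a CK, PB-020 or combination tumor, with the log2 change between 1.19 and 1.43 throughout. Without anti-PD-1 tumor 1 in the fit the adjusted p was 0.00208. Thbs2 (NCBI gene 21826, chr17:14665500-14694262, minus strand), a trimeric thrombospondin that restrains vessel growth and collagen fibril width, had 7.53, 5.10 and 6.66 FPKM in CK and 13.8, 14.2 and 15.8 in the combination. Its groups were as clearly apart, but the log2 change of 1.20 (SE 0.46) missed the threshold (adjusted p = 0.106). The spread of the anti-PD-1 group enters that test. Without anti-PD-1 tumor 1 the same change had an adjusted p of 0.00913, and DESeq2 on all tumors gave 0.0463.

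Promoters are shown for Postn and Thbs2, which varied together over the tumors (r = 0.96, below), and for Thbs3, which had the lowest p in the combination. The 250 bases before the start were read from the RefSeq promoter table (GRCm38.p6) for Postn (chr3:54359017-54359266, plus strand), Thbs2 (chr17:14694263-14694512, minus strand) and Thbs3 (chr3:89214930-89215179, plus strand), 5′ to 3′ on the gene's strand, with motif matches in capitals. None of these 3 windows overlaps an annotated exon. The table matched 8 of the 10 genes, without Fn1 and Thbs1.
Postn: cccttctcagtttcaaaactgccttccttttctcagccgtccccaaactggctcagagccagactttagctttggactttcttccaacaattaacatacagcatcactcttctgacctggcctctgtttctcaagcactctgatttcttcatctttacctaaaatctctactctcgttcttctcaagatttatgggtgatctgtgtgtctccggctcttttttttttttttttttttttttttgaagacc
Thbs2: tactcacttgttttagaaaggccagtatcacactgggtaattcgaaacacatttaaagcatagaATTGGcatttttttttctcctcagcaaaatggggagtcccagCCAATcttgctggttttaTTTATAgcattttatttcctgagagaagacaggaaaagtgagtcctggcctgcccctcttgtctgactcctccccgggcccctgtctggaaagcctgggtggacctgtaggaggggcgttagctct
Thbs3: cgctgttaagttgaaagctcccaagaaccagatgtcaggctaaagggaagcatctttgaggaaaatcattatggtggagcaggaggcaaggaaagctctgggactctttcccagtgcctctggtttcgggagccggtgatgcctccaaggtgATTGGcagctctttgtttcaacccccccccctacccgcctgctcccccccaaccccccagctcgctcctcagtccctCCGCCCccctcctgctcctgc
The motifs searched on both strands were the TATA box (TATAAA), the CCAAT box (CCAAT), the GC box (GGGCGG), the AP-1 motif (TGANTCA) and the TEAD motif (GGAATG). The Postn window held none of the 5. The Thbs2 window held the CCAAT box on each strand and the TATA box on the opposite strand from -126 to -121, and the Thbs3 window held the CCAAT and GC boxes, both on the opposite strand. Of 27025 promoters, 13% held the TATA box, 34.5% the CCAAT box, 32.9% the GC box, 6.87% the AP-1 motif and 12.6% the TEAD motif. The G and C content was 40.4% for Postn, 46.8% for Thbs2 and 58.8% for Thbs3, around a median of 52% over all promoters. These are matches of letters only and show no binding.

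The remaining 3 genes did not pass the test. Thbs1 (NCBI gene 21825, chr2:118111876-118127133, plus strand), an activator of latent TGF-beta and the trimeric relative of Thbs2, had 12.5, 14.9 and 30.5 FPKM in CK and 15.3, 18.1 and 18 in the combination. The groups overlapped through CK tumor 3, and the interval of the log2 change ran from -1.17 to 0.87. Tnc (NCBI gene 21923, chr4:63959785-64047015, minus strand), which encodes the wound and tumor matrix protein tenascin-C, had 24.2, 19.1 and 29.6 FPKM in CK and 27.9, 29.0 and 37.2 in the combination, with a log2 change of 0.32 (SE 0.26, adjusted p = 0.430). Tnr (NCBI gene 21960, chr1:159523729-159931729, plus strand) encodes tenascin-R, a protein of the nervous system. It had 0.87, 0.71 and 0.67 FPKM in CK and 0.35, 0.39 and 0.53 in the combination, and although these did not overlap the log2 change of -0.82 (SE 0.40) had an adjusted p of 0.174. Tnr passed when only the groups compared were fitted (adjusted p = 0.00530) and without anti-PD-1 tumor 2 (adjusted p = 0.0149). The glial markers Gfap, Sox10 and S100b were at 8 counts or fewer in every tumor, and the part of any nerve tissue in the Tnr values was not tested.

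**Figure D2:**
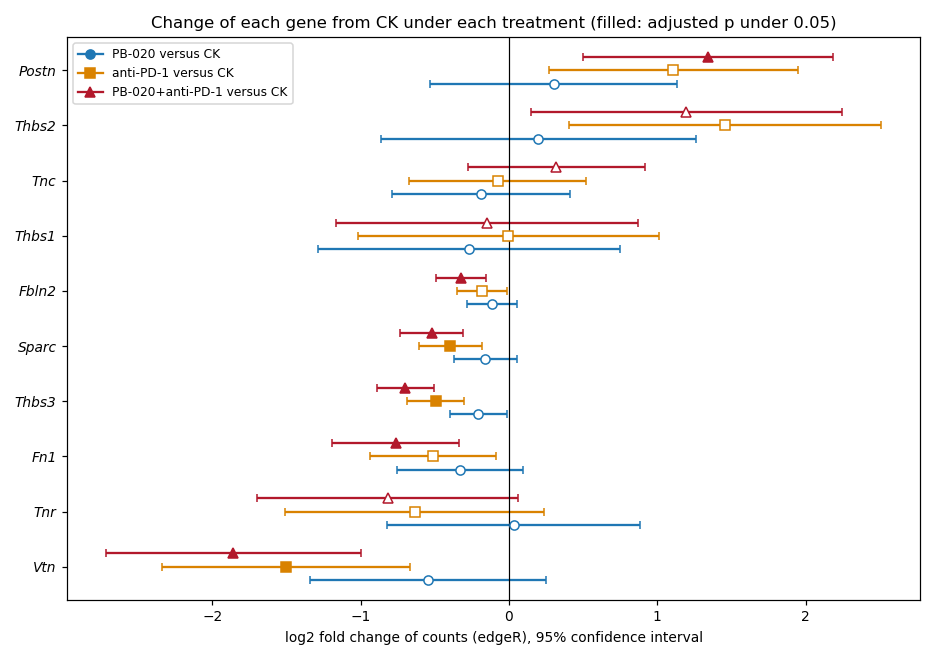
Log2 fold change from CK (horizontal axis) of each gene under each single agent and under the combination, from edgeR on 12 tumors, with bars the 95% confidence interval and filled symbols an adjusted p under 0.05. Filled symbols number 5 to the left and 1 (Postn) to the right for the combination, 3 to the left for anti-PD-1 and none for PB-020.

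Anti-PD-1 alone was compared with CK to see the effect of the antibody without PB-020. Sparc, Thbs3 and Vtn fell and no gene rose, against 4.08% of all genes that fell and 4.18% that rose. For 4 genes all anti-PD-1 tumors lay below all CK tumors (17.2% of all genes), and for Postn and Thbs2 all lay above (11.8%). Thbs3 had 11.9, 13.8 and 11.5 FPKM under anti-PD-1, a log2 change of -0.49 (SE 0.090, adjusted p = 0.00938). Sparc had 782, 747 and 608 FPKM, with a log2 change of -0.40 (SE 0.098, adjusted p = 0.0286). Vtn had 0.74, 0.89 and 0.33 FPKM, with a log2 change of -1.50 (SE 0.39, adjusted p = 0.0335). None of the 3 calls held when only CK and anti-PD-1 were fitted (adjusted p = 0.0561 for Thbs3, 0.109 for Sparc and 0.112 for Vtn), a fit that called 3 genes of all tested in place of 1120. Leaving out CK tumor 2 or anti-PD-1 tumor 3 left Thbs3 alone. Vtn was also lost without CK tumor 3 (adjusted p = 0.110) or PB-020 tumor 1 (0.0523), and Sparc without CK tumor 1 (0.0709).

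The anti-PD-1 tumors differed widely among themselves for the genes that lay above CK. Postn had 258, 81.0 and 119 FPKM, and Thbs2 had 32.2, 8.25 and 12.2. Tumor 1 was the highest of all 12 for both genes, and the log2 changes were 1.11 for Postn (SE 0.37, adjusted p = 0.0985) and 1.46 for Thbs2 (SE 0.46, adjusted p = 0.0871). Without tumor 1 they were 0.51 (adjusted p = 0.195) and 0.70 (adjusted p = 0.166). Without tumor 2 they were 1.40 (adjusted p = 0.0178) and 1.78 (adjusted p = 0.0233), and with DESeq2 both passed with all tumors included (adjusted p = 0.0354 and 0.0201). Fn1 showed the reverse dependence, since tumor 1 had 201 FPKM and tumors 2 and 3 had 122 and 115. With tumor 1 the log2 change of Fn1 was -0.51 (adjusted p = 0.121), and without it -0.80 (adjusted p = 0.00963). Thbs1 was 30.8 FPKM in tumor 1 and 10.5 and 15.7 in the others, and Tnr was 0.87 in tumor 2 and 0.29 in both others. Summed muscle, T cell, macrophage, fibroblast, mural cell (276 TPM, against at most 191 elsewhere) and glial (19.8 against at most 8.38) marker levels were also highest in tumor 1, and their part in these values was not tested.

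PB-020 alone was compared with CK for the effect of the receptor inhibitor without the antibody. None of the 10 genes passed, nor did any of all genes tested (0% called, with 741 at an unadjusted p under 0.05), and DESeq2 called 6 genes in all but none of the 10. Thbs3 alone had an unadjusted p under 0.05, as did 2.34% of all genes in the lowered direction, with 13.9, 16.1 and 15.7 FPKM and a log2 change of -0.21 (SE 0.089, adjusted p = 0.874). For Thbs3, Sparc and Fbln2 all PB-020 tumors lay below all CK tumors (8.74% of all genes). No gene lay wholly above CK (6.19% of all genes). Sparc had 834, 869 and 810.1 FPKM and Fbln2 199.7, 212 and 201, with log2 changes of -0.16 and -0.11. For Sparc and Fbln2, whose spread was small, the intervals reached down to log2 changes of -0.37 and -0.28, so a fall of that size remains possible. For Fn1 the interval ran from -0.75 to 0.10 and for Postn from -0.53 to 1.13.

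The combination was next set against each agent alone. Against PB-020, Thbs3 fell (log2 change -0.49, SE 0.090, adjusted p = 0.0209), and no gene rose, beside 2.11% and 1.25% of all genes. This call was lost when PB-020 tumor 1 or 3 or combination tumor 1 or 2 was left out (adjusted p from 0.0750 to 0.109). Sparc had a log2 change of -0.36 with an adjusted p of 0.0592, Vtn -1.31 with 0.0814, Postn 1.04 with 0.142 and Thbs2 1.0 with 0.240. The number called depended on the anti-PD-1 group that shares the estimate of spread: 6 of the 10 genes were called without anti-PD-1 tumor 1, 4 lower (Fn1, Sparc, Thbs3 and Vtn) and 2 higher (Postn and Thbs2), and 7 when only the 2 groups were fitted. Over all genes the calls also increased, to 1269 of 13680 and 1535 of 13268 in these fits, from 455 of 13563. Against anti-PD-1 alone no gene was called, and 0% of all genes were, although DESeq2 called 1 gene among all. The log2 differences between the combination and anti-PD-1 ranged from -0.36 for Vtn to 0.39 for Tnc, and 8 of 10 were below 0. Without anti-PD-1 tumor 1, Fn1, Thbs1 and Thbs2 turned positive (0.039, 0.38 and 0.50), Postn was 0.83, and the other genes kept their sign. With all tumors, Thbs3 had the only unadjusted p under 0.05 (unadjusted p = 0.0410 from the edgeR fit across all genes, adjusted p = 0.679, log2 difference -0.20). The anti-PD-1 and combination groups overlapped for every gene but Tnc, which had 27.1, 20.6 and 24.7 FPKM under anti-PD-1, all below the lowest combination tumor. Without anti-PD-1 tumor 1, Postn (81.0 and 119 FPKM, against 155 or more) and Thbs2 (8.25 and 12.2, against 13.8 or more) did not overlap either. The share of all genes without overlap was not counted for this comparison, so these separations are description only.

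Whether the combination departed from the sum of the single changes was tested by the interaction contrast, and no gene of the 10 or of all tested (0%) passed. The combination was above the sum for 6 genes and below it for 4. For Thbs3 the single changes of -0.21 and -0.49 summed to -0.70, the same as the measured change to 2 decimals. For Sparc the sum was -0.55 and the measured change -0.52, and for Fn1 they were -0.84 and -0.76. Postn had a sum of 1.41 against 1.34. With all tumors, Tnc had the largest departure, 0.58 above the sum, and the lowest unadjusted p of the 10 (0.154 from edgeR). Several departures rested on anti-PD-1 tumor 1. Without it they were 0.53 for Postn, 0.37 for Fn1 and 0.30 for Thbs2, against -0.069, 0.077 and -0.46 with it. Those of Thbs3 (-0.037) and Sparc (0.098) stayed small, and again no gene of all tested passed. All these contrasts share the CK tumors, so each is given by its own values.

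Among 50 tested genes of other matrix glycoproteins, the combination lowered 7 and raised 3, or 14% and 6% beside 9.6% and 8.35% of all genes, and the median log2 change was 0.094. The largest falls were in Matn2, a filament-forming matrilin, with 30.0, 36.8 and 28.3 FPKM in CK and 7.72, 9.71 and 10.4 in the combination (log2 change -1.75, SE 0.26, adjusted p = 0.00426). Spon2, an integrin ligand of innate immunity, followed (-1.49, SE 0.35, adjusted p = 0.0173). The microfibril gene Fbn1 (-0.45), and Ltbp3 (-0.43) and Ltbp4 (-0.41), which encode latent TGF-beta binding proteins, also fell. The genes that rose were Ccn3 (3.07, SE 0.82, adjusted p = 0.0353), Spon1 (0.94, SE 0.23, adjusted p = 0.0200) and the osteopontin gene Spp1 (0.50, SE 0.14, adjusted p = 0.0312). Ccn3, a matricellular growth regulator, resembled Postn in that anti-PD-1 tumor 1 was highest, with 30.5 FPKM against 3.38, 0.58 and 0.92 in CK and 14.1, 12.4 and 14.1 in the combination. Under anti-PD-1 alone, 4 of the 50 fell and 4 rose (4.08% and 4.18% of all genes), and under PB-020 alone none was called.

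Among 19 tested receptor genes for these ligands, the combination lowered 3 and raised 1, beside 9.6% and 8.35% of all genes. Lrp1, an endocytic receptor that clears thrombospondins, had 68.8, 83.8 and 79.4 FPKM in CK and 49.2, 50.5 and 58.2 in the combination (log2 change -0.54, SE 0.097, adjusted p = 0.00440). The groups did not overlap. Itgb5, whose product pairs with the alpha V integrin to bind vitronectin, fell by 0.39 on the log2 scale (SE 0.078, adjusted p = 0.00676). Itga2b, the platelet integrin subunit, had a log2 change of -0.74 (SE 0.24, adjusted p = 0.0451) at 0.92, 1.24 and 1.89 FPKM in CK, and Itga3, a laminin-binding integrin subunit, rose by 0.43 (SE 0.11, adjusted p = 0.0229). Lrp1 was the 1 receptor gene lowered by anti-PD-1 alone.

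Some markers of the cells that make or meet this matrix were also called in the combination, to be read beside 9.6% of all genes lowered and 8.35% raised. Of 10 fibroblast markers, Dcn (log2 change -1.21), Pdgfra (-0.91) and Pdgfrb (-0.57) fell and none rose at an adjusted p under 0.05. The list was mixed, since 6 of the 10 had a log2 change above 0, with a median of 0.28 and a maximum of 1.69. Its summed TPM ran from 1371 to 1899 in CK and from 1032 to 1425 in the combination, so the groups overlapped. Of 10 T cell markers, 9 rose and none fell, and their sum ran from 25.5 to 34.4 in CK and from 65.0 to 100.3 in the combination. Of 8 mural cell markers, which label smooth muscle and pericytes, Tagln rose (1.04) and Mcam fell (-0.47). None of the 8 macrophage or 8 endothelial markers was called. The part of these cell types in the changes of the 10 genes was not tested.

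Over the 12 tumors the genes varied in distinct directions. Pearson's r of log2 CPM (counts scaled to library size) between Postn and Thbs2 was 0.96, 0.96 also after group means were removed and 0.95 without anti-PD-1 tumor 1. Among the 5 genes lowered in the combination, the 10 pairs had r between 0.75 and 0.92, and between 0.06 and 0.78 after group means were removed. Of the 10 pairs of Postn or Thbs2 with those 5 genes, all had negative r, from -0.84 to -0.34 over all tumors and from -0.89 to -0.76 without anti-PD-1 tumor 1. After group means were removed, 7 of the 10 were positive. Postn with Fn1 went from -0.43 to 0.54, Postn with Fbln2 from -0.55 to 0.54, and Thbs2 with Fbln2 from -0.40 to 0.65. Postn with Thbs3 kept its sign, at -0.84 and -0.40. Fn1 and Fbln2 kept 0.78 within groups, the most among the 5. These values describe 12 tumors that share their treatments, and the points are not independent of the comparisons above.

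**Figure D3:**
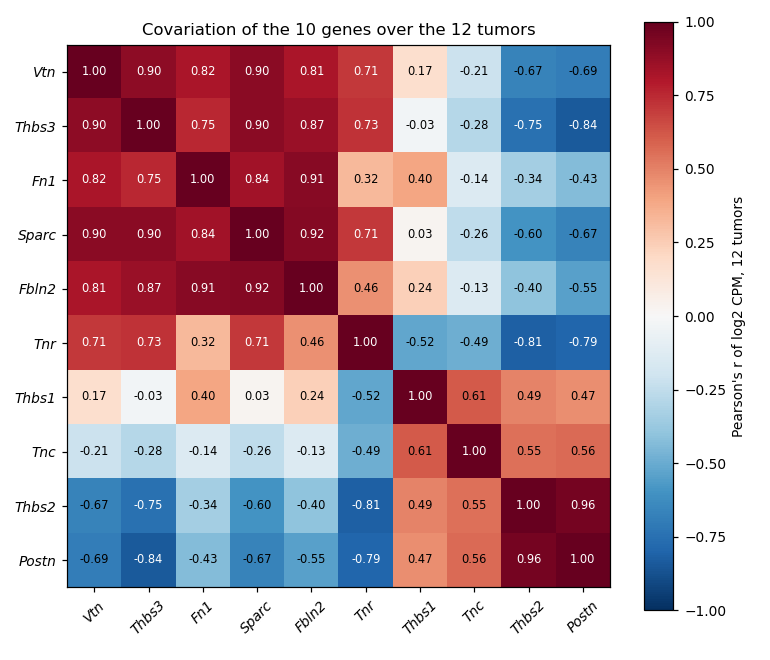
Pearson's r of log2 CPM over the 12 tumors for every pair of the 10 genes, colored from -1 (blue) to 1 (red) with the value in each cell. Vtn, Thbs3, Fn1, Sparc and Fbln2 have r of 0.75 or more with each other, and Postn and Thbs2 have 0.96 with each other and negative r with those 5 genes, of which 7 of 10 values turn positive once group means are removed (not drawn).

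The genes most like each member, out of 11843 with a mean of at least 1 FPKM, were taken as the 3 with the highest r of log2 CPM over the 12 tumors. For Postn these were Slit3 (0.97), Nkg7 (0.97) and Icos (0.97), the last a T cell costimulator and Nkg7 a granule gene of cytotoxic cells. For Thbs2 they were Slit3 (0.98), Pdgfrl (0.98) and Sfrp1 (0.97). For Fn1 they were Spry4 (0.98), Nrp1 (0.95) and Tgfb3 (0.95), and for Vtn Tmem44 (0.97), Arap1 (0.97) and the fibrillar collagen gene Col3a1 (0.97). Sparc was nearest to another fibrillar collagen gene, Col5a1 (0.97), then to Slc25a20 and Manba (both 0.97). Thbs3 was nearest to Sbf2 (0.98), Ptpra (0.97) and Ank2 (0.97), and Fbln2 to Aplp2 (0.97), Ranbp10 (0.94) and Paqr7 (0.93). Thbs1 had Smox (0.93), the tissue factor gene F3 (0.92) and Col5a2 (0.92), Tnr had Glt8d2 (0.95), Slc35d2 (0.94) and Gas2 (0.93), and Tnc had the weakest neighbors, Pkib (0.88), Marcksl1 (0.85) and Rhbdl1 (0.85). Without anti-PD-1 tumor 1 the same 30 pairs had r between 0.85 and 0.99, with Postn at 0.97 with Slit3, 0.96 with Nkg7 and 0.96 with Icos. The pairs were picked for high r among many genes over these same tumors. High values are therefore fixed by the choice, and the fit without 1 tumor is no separate check.

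Ratios within a tumor do not depend on library size. The ratio of Postn to Fn1 in FPKM was 0.462, 0.235 and 0.360 in CK, 0.451, 0.545 and 0.592 under PB-020, 1.28, 0.665 and 1.03 under anti-PD-1 and 1.30, 1.83 and 1.31 in the combination. The ratio of Thbs2 to Thbs3 was 0.451, 0.282 and 0.357 in CK, 0.384, 0.566 and 0.469 under PB-020, 2.69, 0.597 and 1.06 under anti-PD-1 and 1.29, 1.43 and 1.33 in the combination. Its highest value was in anti-PD-1 tumor 1. In both ratios every combination tumor was above every CK and PB-020 tumor. The pairs were chosen after their values had been seen, so they describe and test nothing.

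**Figure D4:**
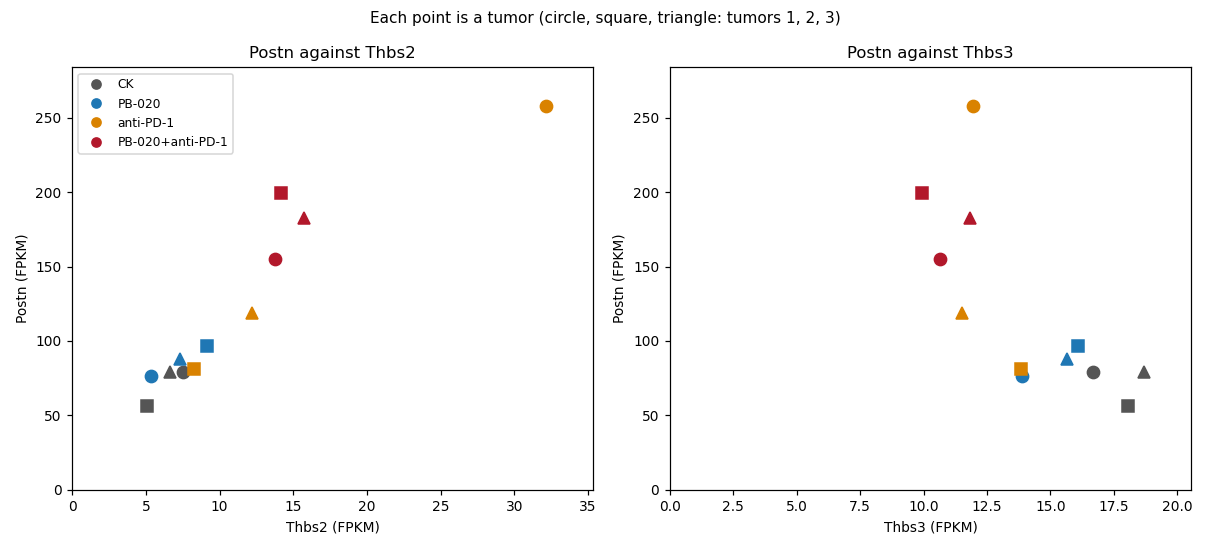
FPKM of Postn (vertical axes) against FPKM of Thbs2 (left) and Thbs3 (right), each point a tumor with its color giving the group, on linear axes from 0. Postn and Thbs2 lie along a line that ends at anti-PD-1 tumor 1 (32.2 and 258 FPKM), and CK tumors lie at high Thbs3 with low Postn.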

How the data were processed

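RNA of 12 MC38 tumors, 3 in each of 4 groups, was sequenced with paired reads of 150 bases. The study's methods name Bowtie2 for alignment and RSEM for quantification, and the submitters' processing notes also name HISAT and the build GRCm38.p6. Strand setting, annotation release and tool versions are not given in the sources used here. The expected counts deposited by the authors are RSEM estimates per gene and tumor, not normalized. The FPKM and TPM values, as the authors deposited them, are the same estimates scaled by transcript length and library. Group averages made by the authors were not used.

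Expected counts (90.97% whole numbers) were rounded, filtered with filterByExpr (minimum count 10, leaving 13563 of 18211 genes) and scaled by TMM. A robust quasi-likelihood model with 4 group means was fitted to all 12 libraries with edgeR 4.0.16 in R 4.3.3, and 6 contrasts were tested two-sided with Benjamini-Hochberg adjustment over all genes tested. The fit was tested first on simulated counts for PB-020+anti-PD-1 versus CK. It called 30 of 67 genes changed 1.5-fold, 48 of 67 changed 2-fold and 59 of 66 changed 3-fold, each in the right direction. Of 13363 unchanged genes it called 7. Small changes can therefore be missed. Library totals of 16545394 to 17217035 make counting error small except for genes with few counts, such as Vtn. The alternatives were DESeq2 1.42.0, limma 3.58.1 on log2(FPKM + 1) and log2(FPKM + 0.1), library size alone, no filter, a mean count of at least 100, fits of the compared groups only, a replicate block and leaving out each tumor. The r values without anti-PD-1 tumor 1, for the 10 genes and their nearest genes, were added after seeing the data.

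The 10 genes and all lists were chosen with earlier results of these data known. Named are all 10 genes, up to 5 called genes per direction from the lists of other matrix glycoproteins and of receptors, and for each of the 10 the 3 genes with the highest r. Marker genes named singly were chosen after their values were seen. Promoter sequences come from RefSeq and coding sequences from GENCODE M21.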

Additional observations from a re-analysis of the deposited data

How the results depend on the processing

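The 10 changes called in the report kept their direction under each alternative that tested the gene. In all, 52 of 1184 alternative values of the 10 genes changed sign, and the cause was not tested. The number of the 10 called in anti-PD-1 versus CK was 3, against 5 with DESeq2, 0 when only the groups compared were fitted and 1 to 6 when a tumor was left out. In PB-020+anti-PD-1 versus PB-020 it was 1, against 3 with DESeq2, 7 when only those groups were fitted and 0 to 6 when a tumor was left out. In PB-020+anti-PD-1 versus CK it was 6, and 3 to 7 when a tumor was left out, with 3 without CK tumor 2 or combination tumor 1 or 2. Over all genes, the 1120 called in anti-PD-1 versus CK were 3 when only those groups were fitted. They were 137 (without CK tumor 2) to 1905 (without anti-PD-1 tumor 2) otherwise, with 1672 under DESeq2. The 2434 in PB-020+anti-PD-1 versus CK ranged from 864 (without CK tumor 2) to 3344 (without anti-PD-1 tumor 1). The 455 in PB-020+anti-PD-1 versus PB-020 ranged from 0 (without combination tumor 1) to 1535 (only those groups), with 1109 under DESeq2. Where edgeR called 0 genes, alternatives called up to 6 for PB-020 versus CK, 2 for PB-020+anti-PD-1 versus anti-PD-1 and 1 for the interaction. The strict filter removed Vtn. A fit that leaves 2 tumors in a group takes its spread from all groups.

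With the replicate block, 2 genes were called in anti-PD-1 versus CK (Vtn lost, adjusted p = 0.0538 from edgeR), 5 in PB-020+anti-PD-1 versus CK (Postn lost, adjusted p = 0.0577) and 1 in PB-020+anti-PD-1 versus PB-020. Of all 13563 genes tested, the block fit called 870, 2010 and 320 in these contrasts, against 1120, 2434 and 455 without the block. The tumors share only a number: 2 of 18 same-numbered pairs had r over 0.1 in their deviations from the group means, and 3 of 12 tumors were nearest to one of their own number.

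Changes of sign in log2 change were as follows, none in a called value. For PB-020 versus CK, Tnr was -0.00045 with limma at a pseudocount of 1 and -0.0088 at 0.1. For anti-PD-1 versus CK, Tnc was 0.0044 and 0.0051 in those fits, and Thbs1 was 0.0054 under the strict filter and 0.024 with the replicate block. For the interaction, Postn was 0.10 in both limma fits. When each tumor was left out in turn, the values ran as follows. PB-020 versus CK gave -0.52 to 0.21 for Thbs1, -0.00060 to 0.37 for Thbs2 and -0.11 to 0.21 for Tnr. Anti-PD-1 versus CK gave -0.52 to 0.47 for Thbs1 and -0.23 to 0.10 for Tnc. PB-020+anti-PD-1 versus CK gave -0.37 to 0.34 for Thbs1. PB-020+anti-PD-1 versus anti-PD-1 gave -0.38 to 0.039 for Fn1, -0.058 to 0.83 for Postn, -0.42 to 0.38 for Thbs1, -0.58 to 0.50 for Thbs2 and -0.45 to 0.61 for Tnr. PB-020+anti-PD-1 versus PB-020 gave -0.028 to 0.38 for Thbs1. The interaction gave -0.094 to 0.032 for Fbln2, -0.045 to 0.37 for Fn1, -0.35 to 0.53 for Postn, -0.047 to 0.10 for Sparc, -0.34 to 0.64 for Thbs1, -0.78 to 0.30 for Thbs2, -0.059 to 0.10 for Thbs3, -0.48 to 0.58 for Tnr and -0.13 to 0.49 for Vtn.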
